A study of Mus musculus with 2 samples.

Results

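E proteins, Id proteins and the regulators Zeb2 and Nfil3 were followed across the dendritic cell (DC) clusters of mouse spleen. The members were taken by name and comprised the E protein genes Tcf3 (E2A), Tcf4 (E2-2) and Tcf12 (HEB), the Id genes Id1, Id2 and Id3, and Zeb2 and Nfil3, making 8 of the 17751 genes in the deposited count tables. Every member had UMIs (unique molecular identifiers, 1 for each captured transcript). CITE-seq, single-cell sequencing of transcripts and antibody tags, was performed on sorted live CD11c+ MHCII+ splenocytes of female mice aged 8 weeks, either WT C57BL/6 or Batf3-/- bred on that background. Batf3-/- mice carry a germline deletion of the transcription factor Batf3 and lack most splenic cDC1. Each genotype was 1 library made from spleens pooled from 6 mice, so that mice could not be told apart, no test between genotypes was possible, and every interval given covers counting error only.

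E proteins are basic helix-loop-helix factors that bind DNA at E-boxes and activate transcription. Id proteins keep the helix-loop-helix but lack the basic region, so that they pair with E proteins and hold them off DNA. In DCs, Tcf4 is required for the plasmacytoid DC (pDC) lineage and Id2 for cDC1, the conventional DCs that cross-present antigen. Zeb2 is a zinc finger repressor required in pDC and some cDC2, and Nfil3 is a bZIP repressor required for cDC1 that acts upstream of Zeb2 and Id2.

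The WT library held 12224 cells and the Batf3-/- library 12119, with medians of 8374.5 and 8516 UMIs per cell and a range from 741 to 37040. Of the cell barcodes, 56 occurred in both libraries, 0.458% of the WT and 0.462% of the Batf3-/- cells. Levels are summed UMIs of a gene over all UMIs of the same cells, per 1000000 (CPM), and no level is compared between genes. Batf3 itself stood at 206 CPM in WT and 2.49 CPM in Batf3-/- cells. Clusters are numbered as deposited. They were built from these same transcripts, so contrasts between clusters are descriptions. The study's pDC cluster (C14) carried 12438 CPM of 7 pDC marker transcripts in WT and 12604 CPM in Batf3-/- cells, against 771 and 750 CPM in the Sox4+ cDC cluster (C3). The immature cDC1 cluster (C4) held 2202 WT but 31 Batf3-/- cells, with 2741 and 1360 CPM of 6 cDC1 markers. In the mitotic cDC1 cluster (C6), the summed level of these markers was 2192 CPM in WT and 411 CPM in Batf3-/- cells, so the name cDC1 holds less well for its Batf3-/- cells. The mature cDC1 cluster (C12) had 543 CPM in WT and 231 CPM in 31 Batf3-/- cells, against 396 CPM in Batf3-/- Sox4+ cDC. The name therefore also holds less well there, and the study reports transcripts such as Xcr1 as nearly absent from C12.

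Promoter sequence bears on these genes because E proteins act through E-boxes. The 250 bases before the RefSeq start sites of Id2 and Nfil3 (GRCm38.p6) are shown with every E-box, searched as CANNTG, in capitals. Both genes lie on the minus strand, and the sequences read 5′ to 3′ towards the gene.

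Id2, chr12:25096093-25096342: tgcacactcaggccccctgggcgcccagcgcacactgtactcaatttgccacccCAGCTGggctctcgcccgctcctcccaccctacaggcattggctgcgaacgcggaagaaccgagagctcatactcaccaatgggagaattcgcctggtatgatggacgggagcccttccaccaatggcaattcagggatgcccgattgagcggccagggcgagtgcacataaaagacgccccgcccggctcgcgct

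Nfil3, chr13:52981040-52981289: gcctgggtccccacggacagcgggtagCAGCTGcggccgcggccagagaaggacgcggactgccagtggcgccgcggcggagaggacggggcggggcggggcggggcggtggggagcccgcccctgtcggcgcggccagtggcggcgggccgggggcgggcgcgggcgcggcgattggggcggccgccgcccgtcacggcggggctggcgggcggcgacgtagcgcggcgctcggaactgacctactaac

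Each window held 1 E-box, of the form CAGCTG, with its first base at −196 from the start site of Id2 and −223 from that of Nfil3. The Id2 window lies inside 1 of the 3 GENCODE M21 transcripts of the gene, with 161 of its bases in an exon, and 34 bases of the Nfil3 window lie in the exon at the 5′ end of the GENCODE model. Tcf3 had 1 window with 1 CANNTG, and of 3 Tcf12 windows 2 held 1 each, in one case as CAGCTG. None of 4 Zeb2 windows and the single Id3 window held CANNTG, which was present in 66.2% of 32851 RefSeq windows of this length; CAGCTG was present in 13%. CANNTG reads the same on both strands and includes CAGCTG. A match in a window describes its letters and does not show a bound site.

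**Figure D1:**
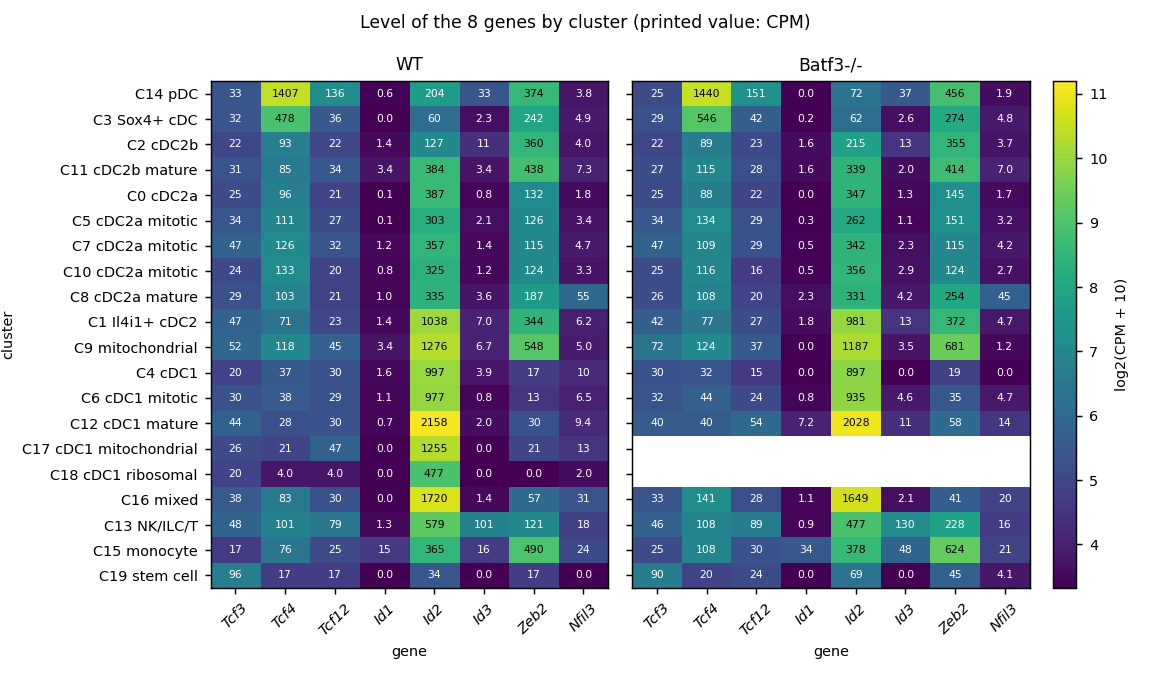
Heat map of the 8 genes (columns) by cluster (rows) in WT and Batf3-/- cells, coloured by log2(CPM + 10) with the CPM printed in each field. C17 and C18 are blank for Batf3-/-, where they held under 25 cells. Tcf4 peaks in pDC (C14) at 1407 and 1440 CPM with Sox4+ cDC (C3) next, Id2 peaks in mature cDC1 (C12) at 2158 and 2028 CPM, and Nfil3 peaks in mature cDC2a (C8) at 55.0 and 45.1 CPM.

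Tcf4 was highest in pDC, at 1407 CPM in WT and 1440 CPM in Batf3-/- cells. Sox4+ cDC followed, at 478 CPM in WT and 546 CPM in Batf3-/- cells. No other cluster exceeded 141 CPM in either library. Over both libraries pooled, these 2 clusters stood apart from each other and from all others by their intervals, with 1420 (95% interval 1375 to 1466) and 527 CPM (517 to 537). A run of cDC2, NK/ILC, monocyte and mixed clusters came next, from 125 CPM in the mitotic cDC2a cluster C5 to 75.4 CPM in Il4i1+ cDC2 (C1), and the intervals of each pair of neighbours along this run overlapped. The cDC1 clusters lay lower, at 40.6 CPM in C6, 36.8 CPM in C4 and 28.7 CPM in C12, and the ribosomal cDC1 cluster C18 was lowest with 4.03 CPM in its WT cells. Tcf4 was therefore graded across cDC1, cDC2, Sox4+ cDC and pDC in both libraries.

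The other E protein genes varied less between clusters. Tcf12 was highest in pDC, with 136 CPM in WT (118 to 155) and 151 CPM in Batf3-/- cells (128 to 176). The NK/ILC/T cluster (C13) was second for Tcf12, at 78.8 and 88.5 CPM, against a median over clusters of 29.5 and 28.0 CPM. In Sox4+ cDC, Tcf12 was 35.6 and 41.8 CPM, which exceeded immature cDC2a by 0.80 (0.56 to 1.03) and 0.95 (0.78 to 1.13) on the log2 scale. Tcf3 was highest in the small stem cell cluster (C19). It was 96.1 CPM in 29 WT cells (17 UMIs) and 89.7 CPM in 36 Batf3-/- cells (22 UMIs). Over both libraries pooled, the C19 interval of 65.7 to 126 CPM overlapped that of the low-UMI cluster C9, 51.5 to 78.1 CPM. In pDC, Tcf3 stood at 33.3 and 24.9 CPM. Across the 18 clusters with at least 25 cells in each library, the Pearson correlation of log2(CPM + 10) between libraries was 0.982 for Tcf4, 0.901 for Tcf12 and 0.902 for Tcf3, given as a description, since the libraries share their cluster calls.

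Id2 did not simply reverse the order of Tcf4. Over both libraries pooled, the mixed cluster C16 exceeded immature cDC1 in Tcf4, at 115 against 36.8 CPM. It also did so in Id2, at 1680 against 995 CPM. In WT, Id2 was lower in immature cDC2b than in pDC. That order turned in Batf3-/- cells, and Id2 in pDC was lower without called doublets, as given below. Sox4+ cDC had 60.4 CPM in WT and 61.6 CPM in Batf3-/- cells, among the lowest levels of any cluster, alongside the stem cell cluster with 33.9 and 69.3 CPM. Immature cDC1 (C4) had 997 and 897 CPM, mitotic cDC1 (C6) 977 and 935 CPM, and mature cDC1 (C12) 2158 and 2028 CPM. The cDC2 clusters differed among themselves. Id2 was 387 and 347 CPM in immature cDC2a (C0), 127 and 215 CPM in immature cDC2b (C2), and 1038 and 981 CPM in Il4i1+ cDC2 (C1), near the level of immature cDC1. The mixed cluster C16 was second highest, with 1720 and 1649 CPM. In pDC the libraries differed, with 204 CPM in WT and 71.9 CPM in Batf3-/- cells.

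Id1 lay under 50 CPM in every cluster, and Id3 in every one but the NK/ILC/T cluster. Id3 was highest there, at 101 CPM in WT and 130 CPM in Batf3-/- cells, and its next highest level in WT was in pDC, at 33.3 CPM. Of its 1383 UMIs, 307 lay in the NK/ILC/T cluster, and immature cDC2b held 295 at the lower level of 11.0 and 13.3 CPM. Within the NK/ILC/T cluster the deposited cell labels divided the genes: WT cells labelled ILC had 759 CPM of Id2 and 169 CPM of Id3, and cells labelled T had 196 CPM of Id3, from 47 UMIs of which 29 lay in 1 cell, with no UMI of Zeb2 in 56 cells. WT cells labelled NK had 939 CPM of Id2 and 370 CPM of Zeb2, but no Id3 UMI in 51 cells. The 31 Batf3-/- cells labelled NK had 33 Id3 UMIs in 2 cells, 25 of them in 1 cell. Id1 totalled 243 UMIs in all cells and was highest in monocytes (C15), at 14.8 CPM from 8 WT cells and 34.4 CPM from 7 Batf3-/- cells.

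The balance of Tcf4 to Id2 was taken as the log2 ratio of their summed UMIs, which is read across clusters and not as one gene exceeding the other. It was 2.79 (2.62 to 2.96) in WT pDC and 4.32 (3.99 to 4.68) in Batf3-/- pDC. In Sox4+ cDC it was 2.98 (2.83 to 3.14) and 3.15 (3.05 to 3.25). Immature cDC1 lay far below, at −4.76 in WT and −4.81 in Batf3-/- cells, and mitotic cDC1 at −4.695 and −4.41. Mature cDC1 had the lowest values of these, at −6.29 and −5.67. In WT, mature cDC1 differed from immature cDC1 by −1.53 (−1.85 to −1.20). In Batf3-/-, with 31 cells in each of these clusters, the difference was −0.86 with an interval that includes 0. Their order there is therefore not settled.

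Sox4+ cDC therefore sat at the pDC end of this axis. Their balance exceeded that of immature cDC1 by 7.74 in WT and 7.96 in Batf3-/-. Over immature cDC2a the excess was 5.002 and 5.12. In WT, the pDC balance differed from that of Sox4+ cDC by −0.20 (−0.43 to 0.03), an interval that includes 0. In Batf3-/- cells it was higher in pDC by 1.17 (0.83 to 1.52). The composition of the balance differed between the clusters. In WT, Tcf4 was 1.56 higher on the log2 scale of CPM in pDC than in Sox4+ cDC, and Id2 was 1.75 higher as well. In Batf3-/- cells the differences were 1.40 and 0.22. These balances and Id2 differences include called doublets. Without them the Id2 level in pDC was lower and the pDC balance higher in both libraries, as given below.

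**Figure D2:**
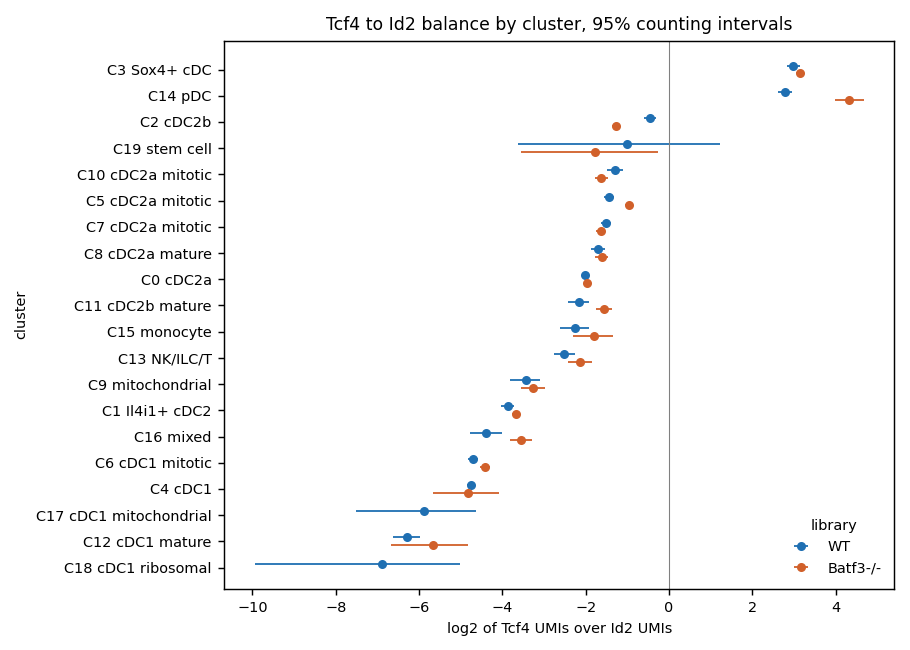
Balance of Tcf4 to Id2, the log2 ratio of summed UMIs, by cluster in WT and Batf3-/- cells, with exact binomial 95% intervals as bars. pDC (C14) and Sox4+ cDC (C3) are the clusters above 0, and mature cDC1 (C12), at −6.29 and −5.67, lies far below immature cDC2a (C0), at −2.02 and −1.98.

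The pDC balance rested on where the Id2 UMIs lay. In WT pDC, 318 Id2 UMIs came from 60 of 154 cells, and 16 cells held 77.4% of them. In Batf3-/- pDC, 75 UMIs came from 24 of 101 cells, and 11 cells held 82.7%. The 25 WT cells called as doublets (droplets that may hold 2 cells) had 468 CPM of Id2 and the other 129 had 106 CPM. In Batf3-/- pDC the 14 called doublets had 194 CPM and the other 87 cells 36.0 CPM. Without called doublets the balance was 3.94 in WT and 5.45 in Batf3-/- pDC, against 3.19 in Sox4+ cDC of both libraries pooled. Transcripts of mature DCs moved with Id2: 4 such markers summed to 312 CPM in WT and 119 CPM in Batf3-/- pDC, and all 4, Ccr7, Fscn1, Il4i1 and Cd83, were higher in WT. The 54 WT pDC with a UMI of Ccr7, Fscn1 or Il4i1 had 337 CPM of Id2, and the 100 without had 111 CPM. The 6 cDC1 markers summed to 452 and 417 CPM, but 4 of them were lower in Batf3-/- pDC, with Xcr1 at 26.3 and 0.96 CPM, Naaa at 74.98 and 13.4 CPM, Cadm1 at 53.8 and 31.7 CPM and Tlr3 at 10.9 and 0 CPM, and Cd8a and Clec9a were higher. The cDC2 markers summed to 632 and 621 CPM, and 5 monocyte markers to 2050 and 1807 CPM. Of the latter, Lyz2 stood at 517 and 129 CPM and Ly6c2, which pDC also express, at 1485 and 1655 CPM. The part of these transcripts in the result was not tested beyond these divisions.

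The same UMIs were also read in single cells. Among cells with at least 5 UMIs of Tcf4 and Id2 together, Tcf4 made up over 50% of the pair in 94.7% of 151 WT pDC and 97.0% of 100 Batf3-/- pDC. This share, too, is read across clusters only. In Sox4+ cDC the shares were 91.8% (87.8% to 94.9%, Clopper-Pearson) of 257 WT cells and 92.4% (90.2% to 94.3%) of 697 Batf3-/- cells. Immature cDC1 lay at the other end, with 0.25% of 2001 WT cells and 0 of 27 Batf3-/- cells, where a count of 0 allows up to 12.8% by the Clopper-Pearson bound. In immature cDC2a the shares were 5.06% and 6.12%. The requirement of 5 UMIs kept 36.5% of WT Sox4+ cDC and 98.1% of WT pDC, so it selected the Sox4+ cDC with more of these transcripts.

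**Figure D3:**
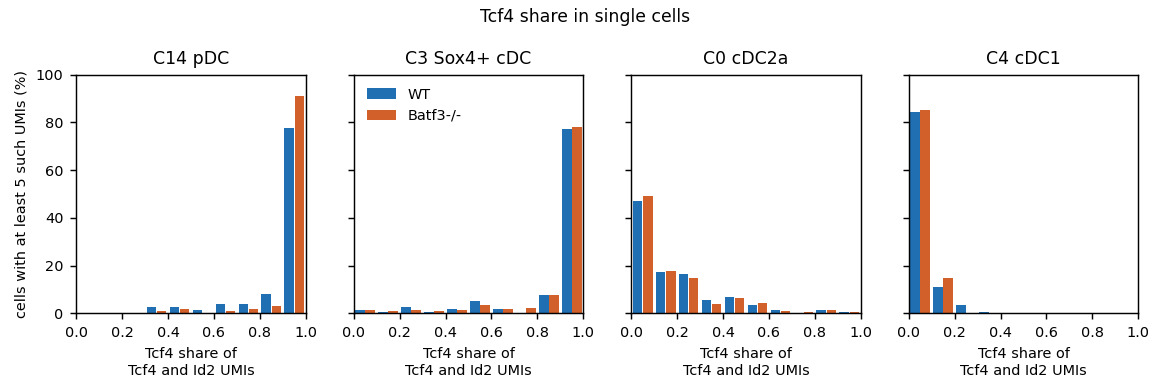
Distribution of the share of Tcf4 among the Tcf4 and Id2 UMIs of single cells with at least 5 such UMIs, in percent of cells, for pDC, Sox4+ cDC, immature cDC2a and immature cDC1 in both libraries. In WT, Tcf4 was the sole one of the pair in 71.6% of Sox4+ cDC and 60.3% of pDC, and Id2 the sole one in 62.1% of immature cDC1.

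At an equal depth of 1000 UMIs per cell, Tcf4 was detected in 76.0% of WT and 74.3% of Batf3-/- pDC and in 32.2% and 36.2% of Sox4+ cDC. In immature cDC1, used as the type that should lack it, Tcf4 was detected in 4.09% of WT cells. Conversely, Id2 was detected in 59.9% of WT immature cDC1, 11.0% of WT pDC and 6.11% of WT Sox4+ cDC. In Batf3-/- cells Id2 was detected in 4.95% of pDC and 5.19% of Sox4+ cDC. The share in Sox4+ cDC was below that in pDC in WT and close to it in Batf3-/-, and it is not read as expression of Id2. Nor is pDC a clean background, since its Id2 differed between libraries and was higher in called doublets. Median depths before thinning were 15399 UMIs in WT immature cDC1, 8466 in WT pDC and 8590 in WT Sox4+ cDC. Without thinning, and with both libraries pooled, Tcf4 was detected in 99.6% of pDC, 86.2% of Sox4+ cDC and 36.5% of immature cDC1.

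Detection of both transcripts in 1 cell was also counted. At 1000 UMIs, 1.56% of WT Sox4+ cDC had both, against 1.97% from the product of the 2 shares, and 1.10% of Batf3-/- Sox4+ cDC, against 1.88%. In immature cDC2a of WT, 2.61% had both, against 2.87%, and in WT pDC 8.44%, against 8.39%. At 5000 UMIs the WT shares with both were 12.4% of Sox4+ cDC, 24.3% of immature cDC2a and 30.9% of pDC. At 5000 UMIs, Id2 was detected in 17% of 489 WT Sox4+ cDC with Tcf4 and in 24.2% of 182 without. In Batf3-/- Sox4+ cDC, it was detected in 15.4% of 1143 cells with Tcf4 and 29.9% of 368 without. In immature cDC1 of WT the corresponding shares were 92.9% and 95.6%. The same order was seen in some cDC2 clusters. In mature cDC2a the shares were 37.7% with Tcf4 and 49.2% without in WT, and 35.2% and 51.0% in Batf3-/-, and in C7 they were 65.1% and 72.0% in WT and 52.4% and 67.6% in Batf3-/-. In immature cDC2a they were 70.6% and 69.6% in WT and 62.5% and 66.4% in Batf3-/-. The lower share with Tcf4 was therefore not particular to Sox4+ cDC.

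Sox4+ cDC were not uniform for these genes. They were divided after thinning to 2000 UMIs by transcript of Siglech, a pDC receptor, or of Ccr2, a chemokine receptor, none of them a member. A missing UMI does not show a missing transcript. Tcf4 stood at 734 CPM in 129 WT cells with a Siglech UMI and 418 CPM in 575 without, and at 797 and 502 CPM in 228 and 1313 Batf3-/- cells. The division by Ccr2 was wider: Tcf4 was 843 CPM in 120 WT cells with and 393 CPM in 584 without, and 873 and 462 CPM in 287 and 1254 Batf3-/- cells. Zeb2 moved with Tcf4, at 351 and 217 CPM in WT and 381 and 246 CPM in Batf3-/- cells with and without Ccr2. Id2 moved the other way, at 28.3 and 67.9 CPM in WT and 35.0 and 68.4 CPM in Batf3-/- cells, low levels whose source (the cells or free RNA) was not tested. The balance was accordingly 4.90 (4.40 to 5.45) with Ccr2 and 2.53 (2.37 to 2.70) without in WT, and 4.64 and 2.76 in Batf3-/- cells. With Siglech the Id2 levels differed little in WT, at 57.7 CPM with and 61.1 CPM without. Cells with a Ccr2 UMI had more UMIs before thinning, with medians of 9533 against 8242 in WT.

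Zeb2 was highest in the low-UMI cluster C9, at 548 CPM in WT and 681 CPM in Batf3-/- cells, and low in cDC1. It stood at 490 CPM in WT and 624 CPM in Batf3-/- monocytes, 438 and 414 CPM in mature cDC2b (C11), 360 and 355 CPM in immature cDC2b, and 374 and 456 CPM in pDC. Sox4+ cDC had 242 and 274 CPM, above immature cDC2a with 132 and 145 CPM. Immature cDC1 had 17.2 and 19.1 CPM. The 221 WT immature cDC1 with the most held 91.8% of their Zeb2 UMIs, and leaving out called doublets lowered the level over both libraries from 17.2 to 5.94 CPM. The transcript Zeb2os is antisense to Zeb2 and overlaps it, with 10.5 and 19.1 CPM, and reads of the pair are told apart by strand only.

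Nfil3 was low in most clusters. Immature cDC1 had 9.66 CPM in WT, and none of the 31 Batf3-/- cells had a UMI, where 3 UMIs would make 6.37 CPM. Sox4+ cDC had 4.86 and 4.81 CPM and pDC 3.85 CPM from 6 WT UMIs and 1.92 CPM from 2 Batf3-/- UMIs. Mature cDC2a (C8) stood above all others, at 55.0 CPM in WT and 45.1 CPM in Batf3-/- cells, followed by the mixed cluster at 31.1 and 20.4 CPM and monocytes at 24.4 and 20.6 CPM, which were close to each other in Batf3-/- cells. The cDC1 clusters did not lead.

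Maturation was compared within cDC2a (C8 over C0), cDC2b (C11 over C2) and cDC1 (C12 over C4), the clusters the study named mature and immature from transcripts. In mature cDC2a, 228 Nfil3 UMIs came from 138 of 531 WT cells, against 39 UMIs from 36 of 3176 immature cells. The log2 ratio was 4.94 (4.45 to 5.47) in WT and 4.698 (4.19 to 5.24) in Batf3-/- cells. Zeb2 was higher by 0.51 and 0.81 in mature cDC2a, and Id2 differed by −0.21 (−0.29 to −0.13) in WT and −0.07 (−0.15 to 0.015) in Batf3-/-. With the mean over cells the Id2 differences were −0.10 and 0.13, so the sign turned in Batf3-/-.

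Id2 was higher in the mature cluster of both other lineages. It was 2158 against 997 CPM in mature over immature cDC1 of WT, a log2 ratio of 1.11 (1.08 to 1.15), and 1.18 (0.99 to 1.36) in Batf3-/- cells, of which 31 lay in each cluster. In cDC2b the ratio was 1.59 (1.45 to 1.73) in WT and 0.65 (0.54 to 0.76) in Batf3-/- cells, whose immature cDC2b had more Id2. Immature cDC2b included cells labelled Monocytes, with less Id2 than those labelled DC, as given below. The ratio was not divided by label. Tcf3 was 44.1 CPM in mature and 19.8 CPM in immature cDC1 of WT, a ratio of 1.15 (0.87 to 1.43), and 39.8 and 29.7 CPM in Batf3-/- cells, where the interval of the ratio, −0.86 to 1.66, includes 0. Zeb2 in WT mature cDC1 was 30.0 CPM and its ratio over immature cDC1 0.81 (0.47 to 1.13), which became 1.92 without called doublets.

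**Figure D4:**
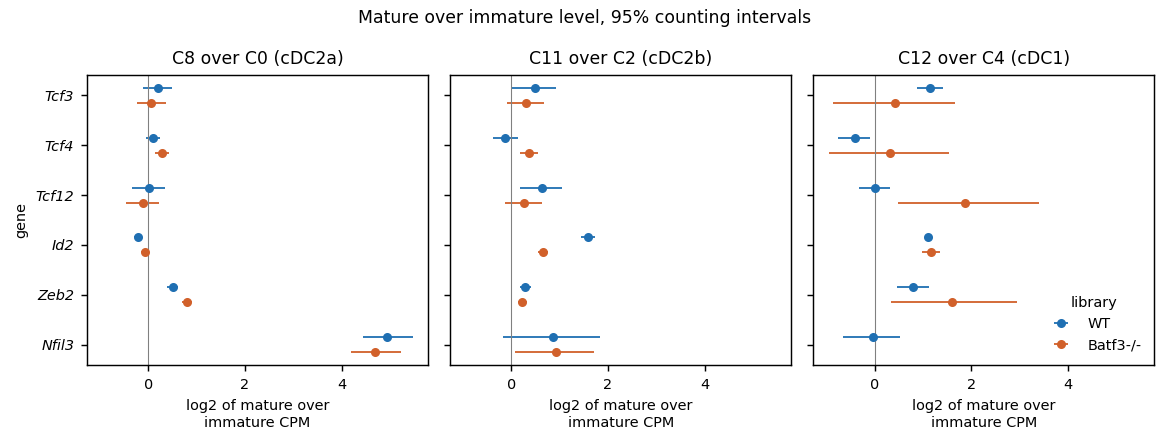
Log2 ratios of mature over immature clusters for 6 of the members in cDC2a, cDC2b and cDC1, by library, with exact 95% intervals as bars. Nfil3 in cDC2a (4.94 and 4.698) and Id2 in cDC2b (1.59 and 0.65) and cDC1 (1.11 and 1.18) lie to the right of 0.

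Counts over the members place these contrasts beside all genes. A gene passed with a mean level of 50 CPM or more over the clusters compared, and was called at a log2 ratio of 1 or more in either direction in WT. From Sox4+ cDC to pDC, 16.1% of genes were called, and of 4 members that passed Tcf4, Tcf12 and Id2 were higher in pDC and Zeb2 differed by 0.63. In Batf3-/- cells Tcf4 and Tcf12 were called and Id2 was not, at 0.22 (−0.14 to 0.56). The WT call of Id2 ends for the 100 pDC without a UMI of Ccr7, Fscn1 or Il4i1. These had 111 CPM against 60.4 CPM in Sox4+ cDC, and Id2 in pDC was also lower without called doublets. From immature cDC1 to Sox4+ cDC, 16.5% of genes were called, with Tcf4 and Zeb2 higher and Id2 lower of 3 members that passed. From immature cDC2a to Sox4+ cDC, 7.12% were called, with Tcf4 higher and Id2 lower of 3 members. A member that passed through its level in a single one of the clusters had to differ, as for Tcf4 and Zeb2 against immature cDC1 and Tcf12 in pDC, so these counts are descriptions.

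With maturation of cDC2a, 7.41% of genes were called and none of 3 members, since Nfil3 had a mean under 50 CPM. With maturation of cDC2b, 2.35% were called, with Id2 higher of 3 members. In Batf3-/- cells 1.82% of genes and none of 3 members were called there, with Id2 at 0.65. With maturation of cDC1, 39.6% were called and Id2 was the 1 member that passed and was higher. That call ends without mitochondrial and ribosomal protein genes in the total, with a log2 ratio of 0.97.

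A list of 36 partner genes held other helix-loop-helix and E-box factors, E protein cofactors, and factors of pDC and cDC fate. Id4 was absent from the tables. A partner that passed through its level in 1 of the clusters had to differ, as for Irf4 in mature cDC2a and Mxd1 in mature cDC1. The partner counts are therefore descriptions. From Sox4+ cDC to pDC, 16.1% of genes were called in WT, and 6 of 16 partners that passed were higher and 3 were lower. Among the higher ones, Spib, an Ets factor of pDC, was 224 CPM in pDC, 80.0 CPM in Sox4+ cDC and 3.28 CPM in immature cDC1 of WT. Runx2, which acts in pDC exit from bone marrow, was 467, 82.6 and 9.51 CPM in the same clusters. Both therefore followed the order of Tcf4.

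Irf8, required for cDC1 and highly expressed in pDC, was 2960 CPM in WT pDC and 1970 CPM in immature cDC1 but 68.7 CPM in Sox4+ cDC, which in this gene differed from both. Bcl11a, a zinc finger factor of pDC and B cells, was close in pDC and Sox4+ cDC, at 516 and 475 CPM. From immature cDC1 to Sox4+ cDC, 16.5% of genes were called in WT. Of 12 partners, 5 were higher and 2, Irf8 and Batf3, were lower. In Batf3-/-, with 31 cells in immature cDC1, 15.2% of genes were called. There 2 of 12 partners, Bcl11a and Relb, were higher and 2, Irf7 and Irf8, were lower. From immature cDC2a to Sox4+ cDC, 7.12% of genes were called in WT, and 1 of 13 partners was higher, Runx2, and 1 lower, Batf3.

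With maturation of cDC2a, 7.41% of genes were called, and 5 of 16 partners were higher and none lower. Among the higher ones were Klf4, from 148 to 978 CPM, and Irf4, from 24.7 to 143 CPM. With maturation of cDC1, 39.6% of genes were called, and 4 of 11 partners were higher and 3 lower. Mxd1, a Max partner that opposes Myc, went from 33.2 to 768 CPM, and Relb, an NF-kB subunit, from 65.0 to 720 CPM. With maturation of cDC2b, 2.35% of genes and none of 15 partners were called.

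Between genotypes within a cluster, a gene was called at a log2 ratio of Batf3-/- over WT of 0.5 or more in either direction, again with 50 CPM or more on average. In immature cDC2a 1.27% of genes were called and 0 of 3 members, in Il4i1+ cDC2 2.45% and 0 of 3, and in Sox4+ cDC 0.423% and 0 of 3. In immature cDC1 18.9% of genes were called, in mitotic cDC1 11.3% and in mature cDC1 23.9%, with Id2 as the 1 member that passed in each and not called. In pDC 4.39% of genes were called and 1 of 4 members, and in immature cDC2b 1.68% and 1 of 3. The called member was Id2 in both, lower in one and higher in the other.

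In the other clusters few members were called. In the mixed cluster 9.86% of genes and 1 of 2 members were called, Tcf4 with 82.5 and 141 CPM and a log2 ratio of 0.77 (0.32 to 1.23). In monocytes 16.4% of genes and 1 of 3 members were called, Tcf4 with a ratio of 0.51 (−0.04 to 1.03). In the stem cell cluster 37.8% of genes and 1 of 2 members were called, Id2 with 6 and 17 UMIs and a ratio of 1.03 (−0.38 to 2.66). In the NK/ILC/T cluster 6.62% of genes and 1 of 5 members, Zeb2, were called. No member was called in C5, C7, C8, C9, C10 or C11, where 1.43%, 1.07%, 2.81%, 12.3%, 1.56% and 3.39% of genes were called.

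In Sox4+ cDC, Tcf4 had a log2 ratio of 0.19 (0.13 to 0.25), Zeb2 of 0.18 (0.09 to 0.26) and Id2 of 0.03 (−0.15 to 0.20). Few genes differed between genotypes in this cluster, and the small ratios of Tcf4 and Zeb2 stood at the 95.2 and 93.4 percentiles of the genes that passed. Id2 differed little in mature cDC1, at −0.09 (−0.22 to 0.04), in mitotic cDC1, at −0.06, and in immature cDC1, at −0.15. In pDC, Tcf4 had a ratio of 0.03 (−0.06 to 0.13), Zeb2 of 0.28 (0.11 to 0.46) and Id2 of −1.502 (−1.89 to −1.14), which was lower than all but 0.217% of genes that passed. Without called doublets the Id2 ratio was −1.55, and in pDC without a UMI of Ccr7, Fscn1 or Il4i1 it was −1.40.

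Id2 was higher in Batf3-/- than in WT immature cDC2b, at 215 against 127 CPM, a log2 ratio of 0.76 (0.66 to 0.86). The deposited labels divided this cluster. Id2 was 161 CPM in 552 WT and 272 CPM in 1040 Batf3-/- cells labelled DC, a ratio of 0.75, but 74.2 CPM in 384 WT and 82.0 CPM in 480 Batf3-/- cells labelled Monocytes, a ratio of 0.14. Zeb2 had the opposite order between labels and was alike between genotypes, at 287 and 290 CPM in cells labelled DC and 476 and 508 CPM in those labelled Monocytes. In this cluster the cDC1 markers summed to 150 CPM for WT and 94.7 CPM for Batf3-/-, and the neutrophil markers to 68.4 and 1.11 CPM. Their part in the result was not tested.

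Zeb2 in mitotic cDC1 lay under the 50 CPM limit. It was 12.5 CPM in WT, from 98 of 797 cells, and 35.4 CPM in Batf3-/- cells, from 254 of 727, a log2 ratio of 1.499 (1.26 to 1.75). With a limit of 20 CPM, 11.6% of genes and 1 of 5 members, Zeb2, were called. Other features of this cluster differed as well: Xcr1 was 397 and 45.7 CPM, Clec9a 203 and 82.1 CPM, and Cadm1 151 and 12.3 CPM. The summed cDC2 markers were 41.8 and 197 CPM, Cd209a among them at 14.9 and 139 CPM. The summed NK cell and ILC markers were 35.0 and 118 CPM, and the plasma cell markers 229 and 79.5 CPM. Cells in G1 numbered 13 in WT and 189 in Batf3-/-, and the part of these differences in the ratio was not tested beyond the divisions that follow. In cells with a UMI of Xcr1 or Clec9a, Zeb2 was 11.1 CPM in 781 WT and 30.2 CPM in 558 Batf3-/- cells. Among cells in S or G2M it was 11.7 and 35.0 CPM. The order was the opposite in the remaining cells of each division, with 110.5 CPM (71.5 to 163) in 16 WT and 55.2 CPM (46.9 to 64.6) in 169 Batf3-/- cells without a UMI of Xcr1 or Clec9a, and 79.6 CPM (45.5 to 129) in WT and 37.3 CPM (30.3 to 45.4) in Batf3-/- cells in G1. The WT levels in these cells came from 25 and 16 UMIs. Without called doublets the ratio was 2.06. Id3 in the same cluster had 12 UMIs in 11 WT cells and 62 UMIs in 27 Batf3-/- cells, 15 of them in 1 cell.

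**Figure D5:**
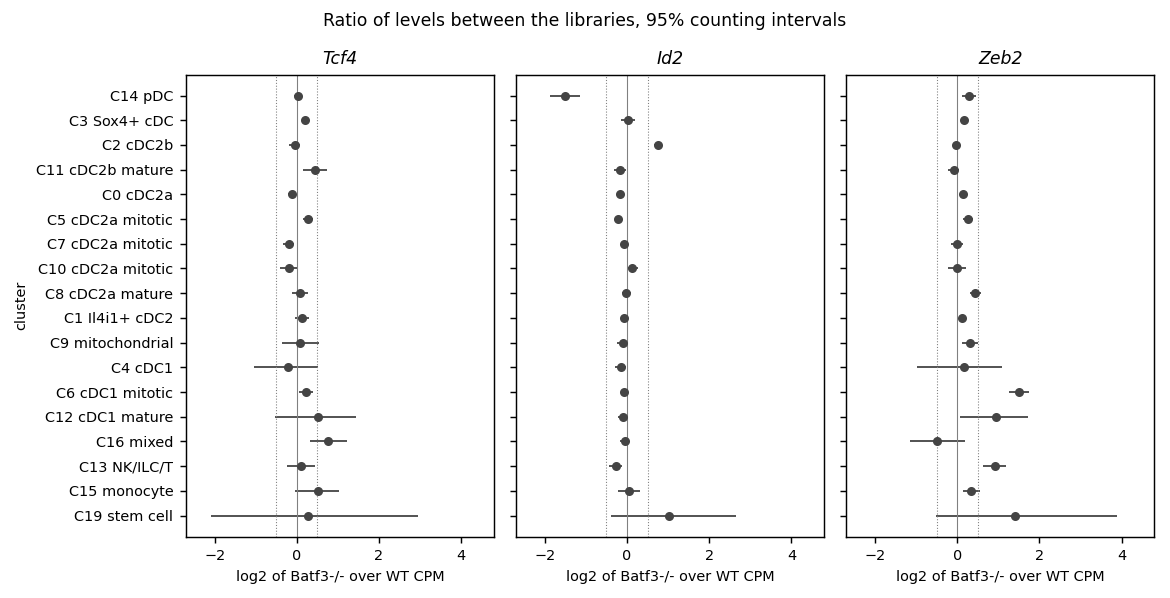
Log2 ratio of Batf3-/- over WT CPM for Tcf4, Id2 and Zeb2 by cluster, with exact 95% intervals as bars and dotted lines at 0.5 in either direction. Id2 lies at −1.502 in pDC (C14) and 0.76 in immature cDC2b (C2), and Zeb2 at 1.499 in mitotic cDC1 (C6), while the Sox4+ cDC (C3) ratios lie between 0.03 and 0.19 for Tcf4, Id2 and Zeb2.

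In the NK/ILC/T cluster Zeb2 was 121 CPM in WT and 228 CPM in Batf3-/- cells, a log2 ratio of 0.91 (0.64 to 1.19). The cells labelled T, in which Zeb2 had 0 and 1 UMIs, numbered 56 in WT and 19 in Batf3-/-. Cells labelled NK had 370 and 470 CPM, cells labelled ILC 81.1 and 115 CPM, and cells labelled DC 130 and 249 CPM, with intervals that did not overlap for DC (102 to 163 and 205 to 300 CPM) but overlapped for NK (291 to 463 and 371 to 587 CPM) and ILC (52.5 to 120 and 80.2 to 160 CPM, from 25 and 35 UMIs). Markers of other cells also differed in this cluster, with plasma cell markers at 5083 and 65.1 CPM, T cell markers at 921 and 589 CPM, cDC1 markers at 306 and 48.6 CPM and mature DC markers at 234 and 397 CPM. Their part in the ratio was not tested. Over all cells together Zeb2 was 124 CPM in WT and 220 CPM in Batf3-/-, Id2 672 and 449 CPM, and Tcf4 108 and 163 CPM, which cannot be told apart from the different numbers of cells in each cluster, such as 704 WT and 1541 Batf3-/- Sox4+ cDC.

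Members were also read by the deposited cell cycle phase. In the mitotic cDC2a cluster C7 of WT, Id2 was 317 CPM in S and 377 CPM in G2M, and in Batf3-/- cells 281 and 381 CPM. Tcf4 in these cells was 96.4 CPM in S and 140 CPM in G2M of WT, and 105 and 112 CPM in Batf3-/-. In mitotic cDC1, Id2 was 963 CPM in S and 1011 CPM in G2M of WT, and 883 and 1100 CPM in Batf3-/-. The immature clusters varied in this respect. Id2 was 1052 CPM in S and 773 CPM in 39 cells in G2M of WT immature cDC1, and in immature cDC2a it was 439.6 and 536 CPM in WT and 350 and 351 CPM in Batf3-/- cells.

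Across the 20 WT clusters, profiles of log2(CPM + 10) were compared over 5856 genes with at least 50 CPM in 1 cluster or more. Genes most like Tcf4 were Man2a2 (Pearson r = 0.908), Dnajc7, Snx18, Aaed1 and Abhd17b. Those most like Id2 were Adam8 (r = 0.910), Actn1, Ly75, Trafd1 and Map4. Zeb2 was most like Fyb (r = 0.911), Sirpa, Map7d1, Slc15a4 and Cybb, and Nfil3 was most like Gm26532 (r = 0.884), Ndel1, Fosl2, Slc41a1 and Kpna1. In the 18 Batf3-/- clusters the value for the gene ranked first was 0.900 for Tcf4, 0.912 for Id2, 0.871 for Zeb2 and 0.640 for Nfil3. Among the members, Tcf4 was most like Zeb2 in WT, with r = 0.71, followed by Tcf12 with r = 0.67, whereas Tcf4 and Id2 had r = −0.32. The order turned in Batf3-/-, where Tcf4 had r = 0.63 with Tcf12, 0.55 with Zeb2 and −0.48 with Id2. The lists depended on the measure, since Spearman's rho kept 0 of 5 genes for Tcf4, 2 for Id2, 2 for Zeb2 and 1 for Nfil3. The clusters share libraries and differ in size and depth, so these values are descriptions.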

How the data were processed

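The 2 pooled libraries were sequenced with 10x 3′ chemistry. For mapping, the authors used Cell Ranger with GRCm38 (mm10) and evened depth between libraries before cells were filtered and clustered in Seurat 3.0.5, per the study's methods and processing notes. The values used are the deposited counts (UMIs of every gene in every cell), with cluster, phase and SingleR label per cell. Mitochondrial and ribosomal shares, deposited as a fraction per cell, were not used, nor were the antibody and normalized tables. UMIs were summed per cluster and library, and cell totals equalled the deposited ones in 24343 of 24343 cells. Levels carry exact Poisson, ratios exact binomial and shares Clopper-Pearson 95% intervals, which cover counting error only. No test between genotypes or clusters was made, because cells are not replicates. For shares, cells were thinned to 1000 UMIs, and 28 WT and 42 Batf3-/- cells with fewer were omitted. At 2000 UMIs 461 WT and 508 Batf3-/- cells were omitted, and at 5000 UMIs 1881 and 1700. Doublets, called by Scrublet at an expected rate of 0.1 per library (541 WT and 244 Batf3-/- cells), were kept unless stated. Scripts used Python 3.11.15, NumPy 2.4.6, SciPy 1.17.1, pandas 2.3.3 and Scanpy 1.11.5 and were tested on simulated data. The named genes are the 8 members, the partner list and the 5 genes most like each of Tcf4, Id2, Zeb2 and Nfil3. Members and lists were chosen with earlier results of these data known. Promoter windows are from RefSeq and were read for 6 members, not for Tcf4 or Id1, and gene models are from GENCODE M21. Alternatives included other weights of cells, totals, depths, limits on low levels and sets of cells, 4 of which were added after the data were seen.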

Additional observations from a re-analysis of the deposited data

Results flagged for a closer look

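Id2 went in opposite directions between genotypes in a pair of clusters. The log2 ratio of Batf3-/- over WT was −1.502 in pDC (C14) and 0.76 in immature cDC2b (C2). The difference between these ratios was not tested, since each genotype has 1 library.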

How the results depend on the processing

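No paired analysis was possible because each genotype has 1 library. Over 36 ratios and balances and 170 alternatives, no called value changed sign and 40 values moved past their counting interval. Alternatives that left a set of under 25 cells were not counted, such as G1 cells for Zeb2 between genotypes in C6. Zeb2 was lower in Batf3-/- there, and in C6 cells without a UMI of Xcr1 or Clec9a, as given above. The causes were not tested.

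The balance of Tcf4 to Id2 over both libraries, 3.23 in C14, 3.10 in C3, −4.76 in C4, −4.56 in C6, −6.23 in C12 and −1.02 in C2, moved as follows. With the mean over cells of each cell's CPM it was 3.89 in C14, −4.86 in C4, −6.88 in C12 and −0.91 in C2. Without called doublets it was 4.38 in C14, 3.19 in C3, −5.03 in C4 and −6.88 in C12. In G1 cells it was 3.50 in C14, 3.20 in C3 and −3.96 in C6. In WT alone it was 2.79 in C14, 2.98 in C3, −4.695 in C6 and −0.45 in C2, and in Batf3-/- alone 4.32 in C14, −4.41 in C6, −5.67 in C12 and −1.27 in C2. Without pDC holding a UMI of Ccr7, Fscn1 or Il4i1, an alternative chosen after seeing the data, it was 4.22.

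With the mean over cells, log2 ratios were 0.64 for Id2 between genotypes in C2, −0.10 and 0.13 for Id2 in C8 over C0 of WT and Batf3-/-, 1.82 and 0.98 for Id2 in C11 over C2, and 1.24 for Id2 and 1.14 for Zeb2 in C12 over C4 of WT. Without called doublets, Zeb2 was 2.06 between genotypes in C6 and 1.92 in C12 over C4. In G1 cells, Id2 was 0.21 between genotypes in C3 and −0.092 in C8 over C0 of WT. Without mitochondrial and ribosomal protein genes in the total, Id2 was 0.00027 between genotypes in C6 and 0.97 in C12 over C4 of WT, under the log2 ratio of 1 for a call. In C2 cells labelled Monocytes, also chosen after seeing the data, the Id2 ratio was 0.14.

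With a limit of 20 CPM, members past 0.5 between genotypes numbered 2 of 4 in C4, 1 of 5 in C6 and 3 of 5 in C12 (0 in each at 50 CPM), beside 24.9%, 11.6% and 32% of all genes. With no limit they numbered 1 in C0, 1 in C1, 5 in C4, 2 in C6 and 4 in C12, beside 9.34%, 14.2%, 48.5%, 21.3% and 43.9% of all genes. At 20 CPM, 4 of 8 members were past it in C15 and 2 of 6 in C16, beside 25.7% and 18.2% of all genes.

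The share of cells with a UMI followed the depth. At 2000 UMIs, 5000 UMIs and unthinned, Tcf4 was detected in 91.7%, 99.6% and 99.6% of C14, 53.3%, 74.8% and 86.2% of C3 and 6.74%, 14.6% and 36.5% of C4. Id2 was detected in 15%, 25.3% and 32.9% of C14, 9.18%, 18.9% and 26.8% of C3 and 80.3%, 95.2% and 99.4% of C4. Divided at 1000 UMIs, the balance was 4.42 in C3 with Siglech, 5.26 with Ccr2 and 2.83 without Ccr2. Divided without thinning, it was 2.35 without Siglech, 4.44 with Ccr2 and 2.10 without Ccr2. Of the 5 genes most alike, Spearman's rho kept 0 for Tcf4, 2 for Id2, 2 for Zeb2 and 1 for Nfil3, and a pseudocount of 1 kept 3 for Tcf4, 2 for Zeb2 and 3 for Nfil3.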
